A study of Homo sapiens with 8 samples.

Results

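H3K27ac was described at *MYC*, at its neighbor *PVT1* and at 7 further genes of the MYC network, *MAX*, *MXD1*, *MXD4*, *MXI1*, *MNT*, *MLX* and *MGA*. Peaks were taken within each gene and 20 kb either side, and for *MYC* and *PVT1* everywhere in a 2 Mb locus of chromosome 8 (127000001 to 129000000, GRCh38), called the *MYC* locus here. This gave 111 merged regions of 18678 in all, of which 91 lay on chromosome 8 and 20 at the 7 other genes. The genes were chosen by function and by measured values of these same lists, because the stretch of chromosome 8 from 120 to 130 Mb held more regions only in MP2_HDAC1_OE than only in MP2_NTC. The class counts there are therefore a description with no test.

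ChIP-sequencing of the activating histone mark H3K27ac was done in a pair of stable lines made from MIA PaCa-2, an established human pancreatic cancer line. Both lines carry lentiMPHv2, which supplies the helper activators of CRISPR activation, and both received lentiSAMv2, which supplies the guide RNA and the activator fused to an inactive Cas9. In MP2_HDAC1_OE the guide RNA targets *HDAC1*, and in MP2_NTC it is non-targeting. Whether a line is a single clone is not given in the sources used here. Each line had 2 H3K27ac samples and 2 control samples without antibody, and the authors deposited 1 peak list per line that pools both samples. There are no replicates in the lists, the sequencing depth is unknown, and no difference between the lines could be tested.

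The MP2_HDAC1_OE list holds 25045 peaks with a median signal of 46.5, and the MP2_NTC list holds 22569 with a median of 49.3. Because the scaling of the signal between the lists is not known, each peak was given a percentile, which is the share of peaks of its own list with a lower signal. A merged region, made of peaks that overlap by at least 1 bp, takes the percentile of its strongest peak. It is called shared when it holds peaks of both lists and unique otherwise. Of the markers of the line, the mesenchymal gene *VIM* had a shared promoter region at percentile 86.2 in MP2_HDAC1_OE and 69.1 in MP2_NTC, and the epithelial keratin *KRT18* had one at 61.1 and 76.2. A further *VIM* region was unique to MP2_NTC (23.9), and a further *KRT18* region was unique to MP2_HDAC1_OE (30.2). *KRT8* had a region in MP2_HDAC1_OE only, and *KRT19* had 1 unique region in each list and none shared. No region lay at the promoters of the epithelial genes *EPCAM* and *CDH1*, nor at those of the genes of other cell types *PTPRC*, *PECAM1* and *ALB*. At *HDAC1* itself, the activated gene, the shared promoter region (chromosome 1, 32291457 to 32291900) stood at percentile 93.9 in MP2_HDAC1_OE and 40.4 in MP2_NTC, and a neighboring region (percentile 45.2) was unique to MP2_NTC.

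MYC is a transcription factor that binds E-box DNA only as a dimer with MAX and drives genes of growth, ribosome production and metabolism. The MXD proteins, MXI1, MNT and MGA compete for MAX and repress through the same sites, while MLX is a MAX-like partner of part of this family. *MYC* lies in a broad interval of 8q24 with few other coding genes and many long noncoding RNA genes, where distant enhancers contact the *MYC* promoter and *PVT1* can compete for them. H3K27ac marks active promoters and enhancers, and HDAC1 is a deacetylase that can remove it.

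At *MYC* both lists placed their strongest peak over the start of the gene. The MP2_HDAC1_OE peak (chromosome 8, 127735417 to 127735947) had a signal of 117 and stood at percentile 98.6, with 341 peaks above it in its list. The MP2_NTC peak (127735553 to 127735821) had a signal of 95.7 and stood at percentile 92.2, with 1755 peaks above it. Thus the *MYC* start ranked among the strongest peaks of both lines. It stood 6.4 percentile points higher in MP2_HDAC1_OE, which is within the quartiles of all shared regions (-10.4 and 15.6 points).

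Away from the start, most regions along *MYC* were shared but ranked differently in the lists. A shared region 1086 bp before the gene, within the divergent noncoding gene *CASC11* (127733473 to 127734348), stood at percentile 63.4 in MP2_HDAC1_OE and 5.14 in MP2_NTC. The next region inside *MYC* (127736477 to 127737400) stood at percentile 62.8 and 21.9 in the same order. The following one (127738065 to 127739401) had the opposite order, with percentile 37.8 in MP2_HDAC1_OE and 82.0 in MP2_NTC. Differences at these 3 shared regions were thus 58.3, 40.9 and -44.2 percentile points (MP2_HDAC1_OE minus MP2_NTC). In the last part of the gene, 3 overlapping MP2_HDAC1_OE peaks formed a region (127739832 to 127741225, percentile 68.5) with no MP2_NTC peak, although the nearest MP2_NTC peak ended only 430 bp away. The sixth region, 16591 bp past the gene end, was weak in both lists, at percentile 15.5 in MP2_HDAC1_OE and 23.04 in MP2_NTC. In all, *MYC* and its 20 kb flanks held 11 peaks in MP2_HDAC1_OE and 7 in MP2_NTC, in 5 shared regions, 1 unique to MP2_HDAC1_OE and 0 unique to MP2_NTC.

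**Figure D1:**
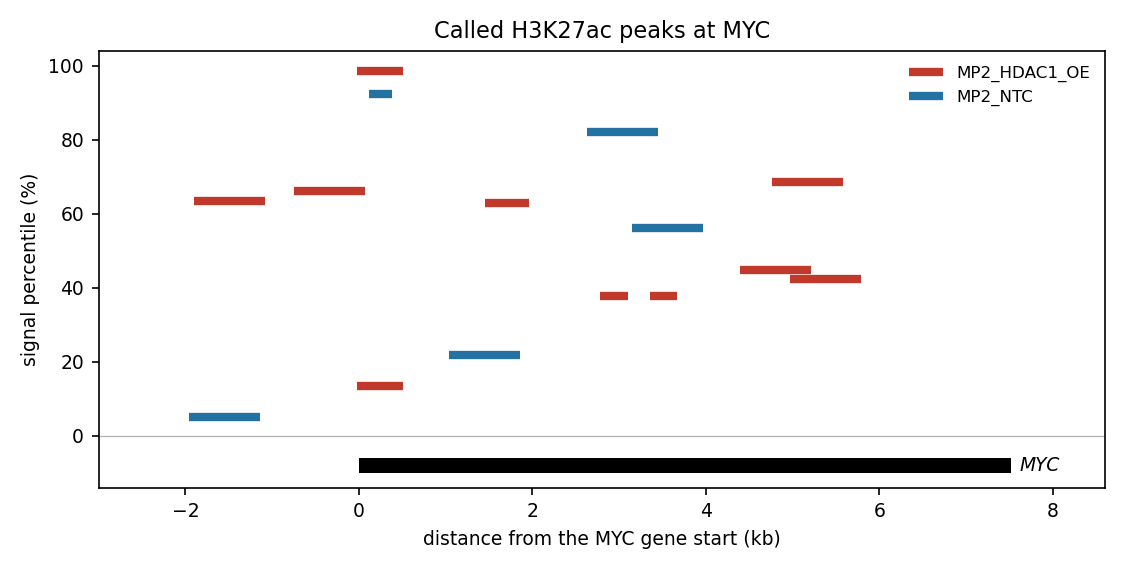
Called H3K27ac peaks at *MYC*, by distance from the gene start (kb, x axis) and signal percentile within the list (%, y axis). Each bar is 1 peak of MP2_HDAC1_OE (red) or MP2_NTC (blue), and the black bar is the gene. The strongest peak of both lists lies over the gene start (98.6 and 92.2), and no MP2_NTC peak lies under the 3 MP2_HDAC1_OE peaks of the last unique region (strongest at 68.5).

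Seen as a stretch, the peaks at *MYC* formed a larger cluster in MP2_HDAC1_OE. When peaks of a list were joined across gaps of up to 12.5 kb, the *MYC* stretch of MP2_HDAC1_OE spanned 7.70 kb with 10 peaks and a summed signal of 529. It ranked 163 of 9325 stretches of its list. In MP2_NTC it spanned 5.93 kb with 5 peaks and a summed signal of 275, rank 721 of 8990. A sum grows with the number of peaks called, so the rank reflects both the count and the strength of peaks.

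*PVT1*, a long noncoding RNA gene that starts 3′ of *MYC* and hosts several microRNAs, is the longest member and held the most regions. Within the gene and 20 kb either side there were 43 regions, with 19 unique to MP2_HDAC1_OE, 11 unique to MP2_NTC and 13 shared. These were 44.2%, 25.6% and 30.2% of its regions, against 28.6%, 20.7% and 50.7% of all regions. The Wilson interval of the share unique to MP2_NTC (14.9% to 40.2%) included the 20.7% of all regions, so that share was not set apart from it. For the share unique to MP2_HDAC1_OE the interval (30.4% to 58.9%) lay above 28.6%. These intervals cover counting error only, and *PVT1* lies in the locus that was chosen for its excess of regions unique to MP2_HDAC1_OE. The gene start lay in a shared region (127794398 to 127794969) at percentile 68.8 in MP2_HDAC1_OE and 84.0 in MP2_NTC. The next region (127795125 to 127796336), over the microRNA gene *MIR1204*, held the strongest MP2_HDAC1_OE peak of *PVT1* and stood at 88.6 and 81.7. The *PVT1* start therefore carried the mark in both lines, with differences under 20 points.

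The strongest MP2_NTC peak of *PVT1* was internal. It lay in a shared region (127853874 to 127854824), had a signal of 121.4, stood at percentile 97.6 and outranked the MP2_NTC peak at the *MYC* start. The same region stood at only 44.9 in MP2_HDAC1_OE, a difference of -52.7 points. Around it lay both shared and single-line regions. The shared ones stood at 53.5 in MP2_HDAC1_OE and 31.2 in MP2_NTC (127848526 to 127849864), at 38.9 and 9.09 (127858840 to 127859659) and at 42.2 and 42.6 (127863757 to 127865315). Regions unique to MP2_NTC stood at 34.4 (127845598 to 127846673), 60.8 (127851526 to 127852568) and 29.1 (127875448 to 127876267). The strongest region unique to MP2_HDAC1_OE stood at 59.7 (127855216 to 127856035), 391 bp from the nearest MP2_NTC peak. Others unique to MP2_HDAC1_OE stood at 33.8 (127857144 to 127857963), 4.95 (127860045 to 127860864), 13.8 (127866082 to 127867509), 33.8 (127869540 to 127870659) and 31.1 (127876612 to 127877431). As a joined stretch this internal block ranked 91 of 8990 in MP2_NTC (30.7 kb, 12 peaks, summed signal 568) and 212 of 9325 in MP2_HDAC1_OE (28.9 kb, 13 peaks, summed signal 469).

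Other *PVT1* regions were mixed, with some higher in MP2_HDAC1_OE and others found only in MP2_NTC. The shared region at 127906489 to 127907388 stood at percentile 74.9 in MP2_HDAC1_OE and 34.3 in MP2_NTC, a difference of 40.6 points. The next 2 regions, which were also shared, differed by 14.6 and 8.53 points. Farther into the gene, MP2_NTC alone had a region at percentile 81.4 (127917418 to 127918441), the highest of its 11 unique regions at *PVT1*. The 19 regions unique to MP2_HDAC1_OE at *PVT1* were mostly weak, with a median percentile of 31.8 and a range from 1.43 to 59.7. The 11 unique to MP2_NTC had a median of 29.5 and ranged from 7.38 to 81.4.

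The regions of chromosome 8 from 120 to 130 Mb that only MP2_HDAC1_OE had lay mostly near *MYC*, as did the regions of every class. The span held 109 regions, with 47 unique to MP2_HDAC1_OE, 17 unique to MP2_NTC and 45 shared. Of the 47, 41 (87.2%) lay in the *MYC* locus, against 91 of all 109 (83.5%), 37 of the 45 shared (82.2%) and 13 of the 17 unique to MP2_NTC (76.5%). The Mb that holds *MYC* itself had 72 regions (34 unique to MP2_HDAC1_OE, 11 unique to MP2_NTC, 27 shared), the Mb after it had 19 (7, 2 and 10), and no other Mb of the span had more than 8. The second and the third Mb of the span had 0 regions. Among 247 windows of 10 Mb with at least 20 regions, the span ranked 13 by the share of regions unique to MP2_HDAC1_OE (43.1%, against a median of 28.5%) and 3 by their excess over those unique to MP2_NTC (30, against a median of 5).

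**Figure D2:**
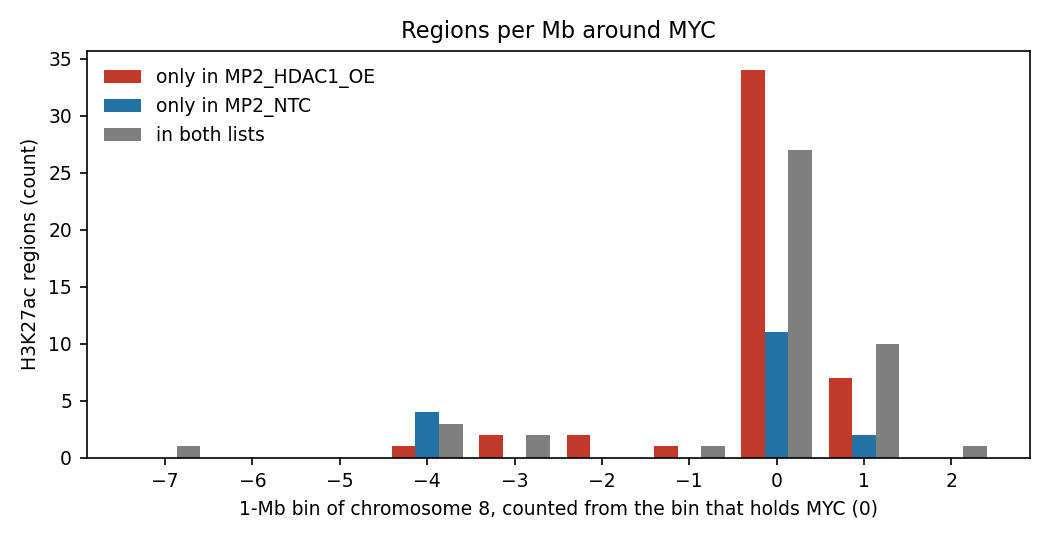
Number of H3K27ac regions (y axis) in each 1-Mb bin of chromosome 8 from 120 to 130 Mb, counted from the bin that holds *MYC* (x axis, 0), by class. The bin of *MYC* holds 34 regions unique to MP2_HDAC1_OE, 11 unique to MP2_NTC and 27 shared, and the next bin 7, 2 and 10.

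In the *MYC* locus, 41 of 91 regions (45.1%, 95% Wilson interval 35.2 to 55.3) were unique to MP2_HDAC1_OE and 13 (14.3%, 8.54 to 22.9) were unique to MP2_NTC. Over all 18678 regions these shares were 28.6% and 20.7%, and on the rest of chromosome 8 outside 120 to 130 Mb they were 24.2% and 17.9%. The intervals cover counting error only, and the contrast is the one that chose the locus. With peaks left unmerged and matched at an overlap of 50% of both, MP2_HDAC1_OE held 64.5% of the unmatched peaks (91 against 50) in place of 75.9% of the unique regions. Among 2468 windows of 2 Mb that held a region, moved along each chromosome by 1 Mb, the *MYC* locus had the largest excess of regions unique to MP2_HDAC1_OE over those unique to MP2_NTC (28) and ranked 18 by number of regions (91, against a median of 9). Such an excess can grow with the number of regions, and these windows were not ranked by share. The MP2_HDAC1_OE peaks there covered 68.0 kb and the MP2_NTC peaks 49.3 kb.

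The regions unique to either line in the *MYC* locus were mostly weak, and many lay near a peak of the other list. Of the 41 regions unique to MP2_HDAC1_OE, 27 were a single peak, and their percentiles ran from 1.43 to 86.5 with a median of 33.9. Over all regions unique to MP2_HDAC1_OE the median was 41.6. The nearest MP2_NTC peak was a median of 1699 bp away, against 5182 bp over all regions unique to MP2_HDAC1_OE. Of the 41, 11 (26.8%) lay within 500 bp of one, against 19.4%. Of the 13 unique to MP2_NTC, 8 were a single peak, and the median percentile was 29.5, against 39.1 over all such regions. Their median distance to an MP2_HDAC1_OE peak was 1305 bp, against 4660.5 bp, and 5 (38.5%) lay within 500 bp, against 21.5%. Shared regions of the locus also had lower median percentiles than all shared regions (56.7 against 74.6 in MP2_HDAC1_OE, 53.4 against 71.8 in MP2_NTC). Whether such a region is a new site or a differently placed peak call cannot be told apart here.

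**Figure D3:**
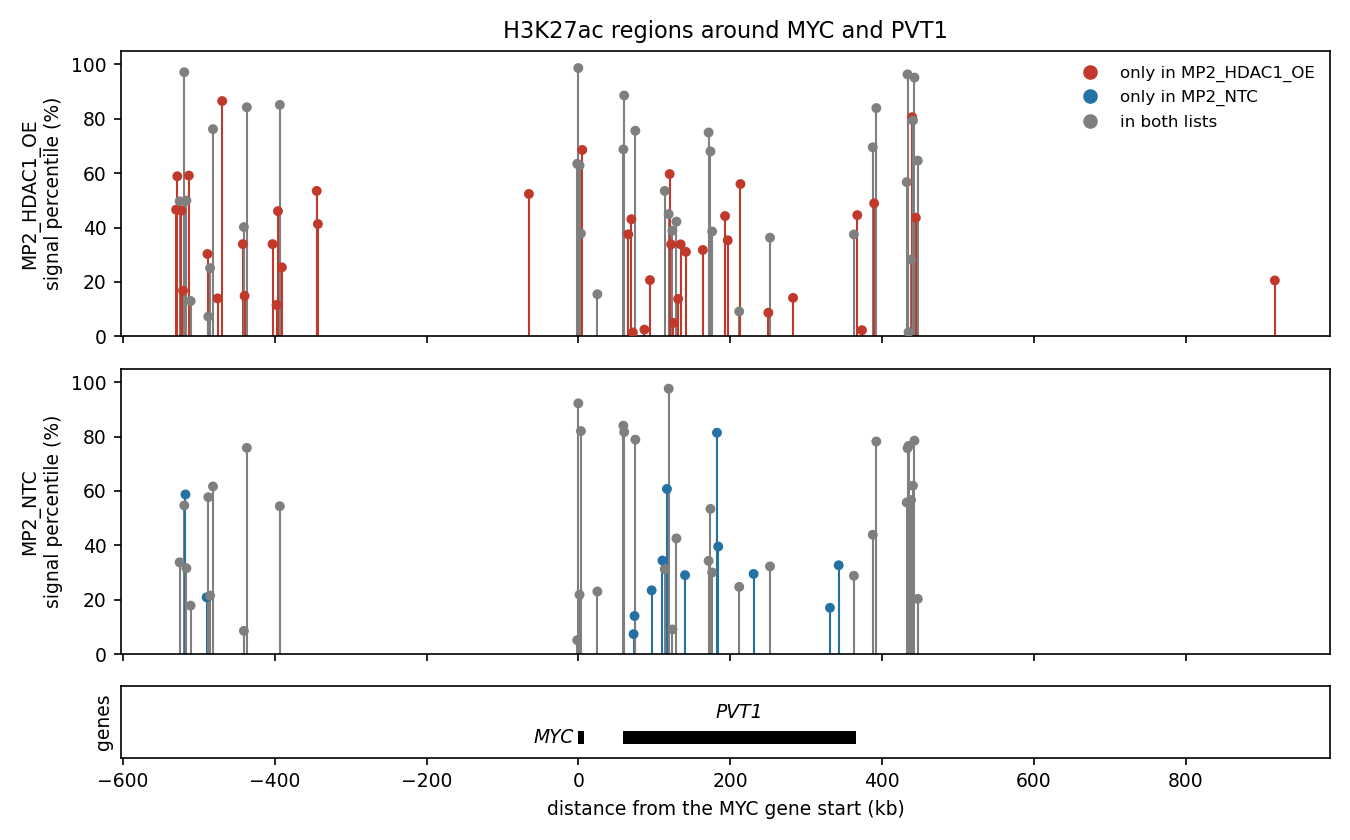
Signal percentile (%, y axis) of each H3K27ac region of the *MYC* locus on chromosome 8 in MP2_HDAC1_OE (top) and MP2_NTC (middle), by distance of the region's center from the *MYC* gene start (kb, x axis), with *MYC* and *PVT1* as black bars (bottom). Red stems are the 41 regions unique to MP2_HDAC1_OE, blue stems the 13 unique to MP2_NTC and grey stems the 37 shared regions, and red stems stand both before *MYC* and through *PVT1*.

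Before *MYC*, the regions fell mostly over a row of long noncoding RNA genes named for their association with cancer. Within the locus 31 regions began at lower coordinates than the *MYC* start, with 17 unique to MP2_HDAC1_OE, 2 unique to MP2_NTC and 12 shared. The shared ones include the region over the *MYC* start itself (127734690 to 127735947). The farthest block (127205126 to 127266757), over *CCAT1* and *CASC21*, held 17 of them. Its strongest region (127215621 to 127216988, in *CCAT1*) stood at percentile 97.1 in MP2_HDAC1_OE and 54.7 in MP2_NTC, a difference of 42.4 points. The block's last region (127265717 to 127266757, in *CASC21*) was unique to MP2_HDAC1_OE at percentile 86.5, with 2 peaks and no MP2_NTC peak within 11186 bp. *CCAT1*, an enhancer-associated transcript, thus carried some of the strongest H3K27ac of the whole locus in MP2_HDAC1_OE. A difference of over 20 points toward MP2_NTC occurred once in this block, at 127247510 to 127248396 in *CASC21*, with percentile 7.26 in MP2_HDAC1_OE and 57.7 in MP2_NTC.

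Closer to *MYC* came 3 blocks inside *CASC21* and *CASC8*. The first (127293032 to 127299695) had 2 shared regions and 2 unique to MP2_HDAC1_OE, and its strongest region (127297696 to 127299695) stood at 84.2 and 75.9. The second (127331645 to 127345253) had 4 regions unique to MP2_HDAC1_OE and 1 shared region at 85.1 in MP2_HDAC1_OE and 54.4 in MP2_NTC. The third (127390657 to 127392721) had only 2 regions of MP2_HDAC1_OE, at 53.5 and 41.3, with the nearest MP2_NTC peak 47750 bp away. One further region of that line (127669629 to 127670879, percentile 52.3) stood alone 64555 bp before the *MYC* gene, beside *LOC105375754*. No region from *CASC8* to *MYC* was unique to MP2_NTC.

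Past *PVT1*, the cluster with the largest summed signal of the locus in MP2_HDAC1_OE lay over the noncoding gene *LOC124902020* (128167260 to 128183479), where 7 regions were shared, 2 were unique to MP2_HDAC1_OE and 0 were unique to MP2_NTC. Joined, it ranked 23 of 9325 stretches in MP2_HDAC1_OE, with 20 peaks and a summed signal of 1013. In MP2_NTC it ranked 110 of 8990, with 12 peaks and 544, below the internal *PVT1* block. Within it the region at 128168598 to 128169295 stood at 96.3 in MP2_HDAC1_OE and 75.7 in MP2_NTC, and the last region (128181363 to 128183479) at 64.6 and 20.3. Its neighbor at 128169940 to 128170759 went the other way, at 1.53 and 76.6, the largest difference toward MP2_NTC among all members (-75.0 points). A unique MP2_HDAC1_OE region inside the cluster (128174984 to 128175241) stood at 80.6. One more region of that line (128652300 to 128653119, percentile 20.5) lay 87621 bp from *LINC00824*.

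Only 6 of the 47 regions unique to MP2_HDAC1_OE lay outside the *MYC* locus. They fell in *ZHX1*, *RNF139-DT*, *NDUFB9*, the overlap of *NSMCE2* and *WASHC5*, *TRIB1*, and the noncoding *LOC105375751* and *LOC105375753*. The one in *NDUFB9*, a subunit of respiratory complex I, was the strongest, at percentile 83.0, and the one in *RNF139-DT* the weakest, at 8.11. At *ZHX1* an MP2_NTC region at percentile 78.4 lay 312 bp from the MP2_HDAC1_OE region at 66.8.

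Shared regions of the members were compared by their percentile difference. Of 47 shared regions, 12 stood at least 20 points higher in MP2_HDAC1_OE and 5 at least 20 points higher in MP2_NTC, where 19.7% and 14.7% of all 9477 shared regions did so. The median difference was 8.37 points, with 33 above 0 and 14 below, against a median of 1.51 points over all shared regions (quartiles -10.4 and 15.6). On chromosome 8 the counts were 11 and 5 of 37. The differences there ran from -75.0 to 58.3 points, so the regions of the locus did not move as a unit. Ranked by summed signal and not by the strongest peak, the 47 shared regions gave counts of 12 and 11 in place of 12 and 5. The strongest class, at percentile 90 or more, held 7 of the 92 member regions with an MP2_HDAC1_OE peak (7.61%, against 15.2% of all such regions) and 4 of 66 in MP2_NTC (6.06%, against 15.1%).

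**Figure D4:**
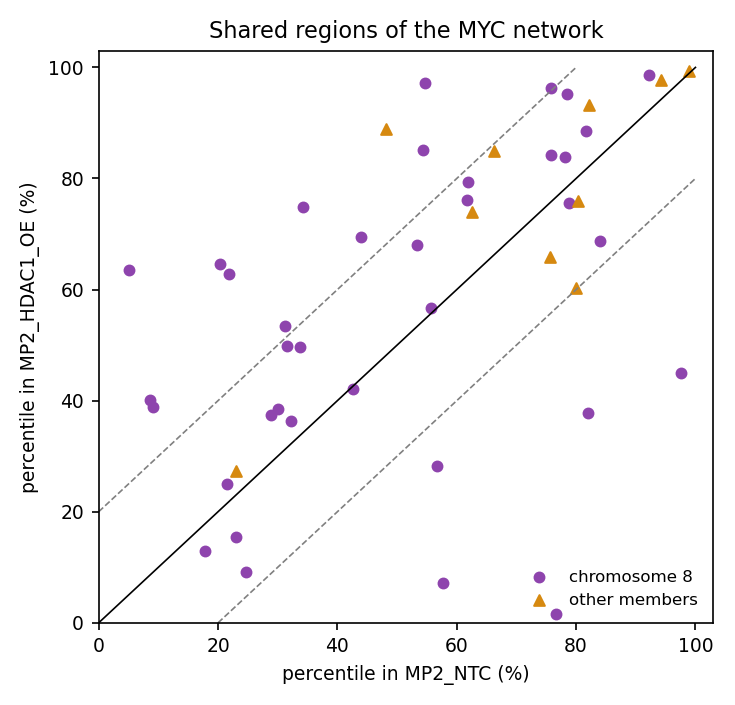
Percentile (%) of each of the 47 shared regions of the MYC network in MP2_NTC (x axis) and MP2_HDAC1_OE (y axis), with circles for chromosome 8 and triangles for the other members. The solid line marks equal percentiles and the dashed lines 20 points either side. There are 12 points on or above the upper dashed line and 5 on or below the lower one.

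The 7 members on other chromosomes had few regions. Of 20 regions, 10 were shared, 4 were unique to MP2_HDAC1_OE (20.0%, against 28.6% of all regions) and 6 were unique to MP2_NTC (30.0%, against 20.7%). Among the 8 protein-coding members including *MYC*, 3 had a region unique to MP2_HDAC1_OE within the gene and 20 kb and 3 had one unique to MP2_NTC, where 26.4% and 23.5% of all protein-coding genes did. At the promoter, set from 2 kb upstream to 1 kb inside each annotated start, 7 of 8 members had a region of either line (48.8% of all protein-coding genes), 2 had one unique to MP2_HDAC1_OE (11.8%) and 1 had one unique to MP2_NTC (10.1%).

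**Figure D5:**
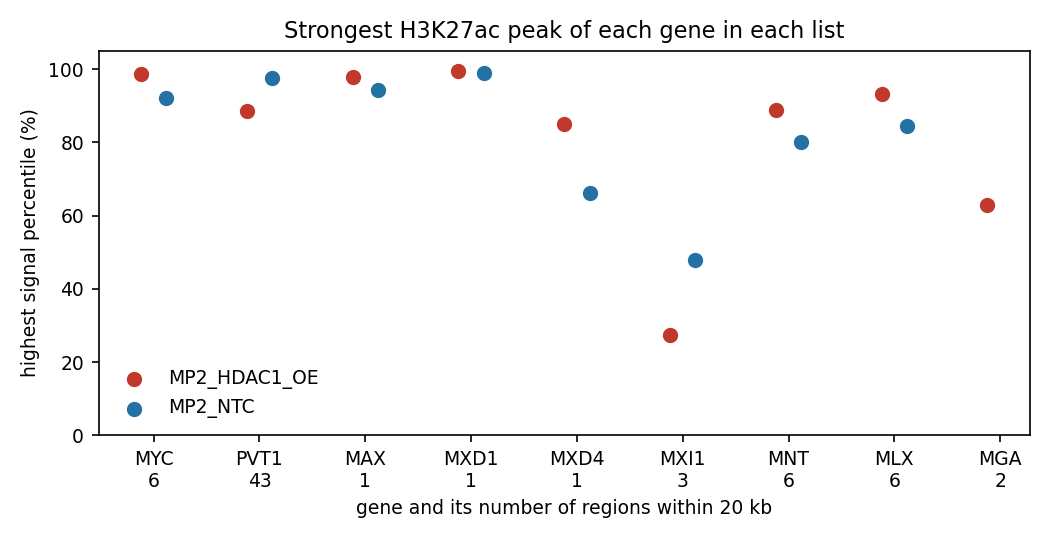
Highest signal percentile (%, y axis) among the peaks of each gene and 20 kb either side in MP2_HDAC1_OE (red) and MP2_NTC (blue), with the number of merged regions under each gene name. *MXD1* stands highest in both lists (99.3 and 98.9), *MXI1* lowest in MP2_NTC and in MP2_HDAC1_OE (48.0 and 27.3), and *MGA* has no MP2_NTC peak within 20 kb.

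*MAX*, the common partner, had a single region, which was not at its own start. This shared region (chromosome 14, 64986657 to 64987626) overlapped *FNTB*, a farnesyltransferase subunit gene, 18475 bp beyond the 3′ end of *MAX*, and stood at percentile 97.8 in MP2_HDAC1_OE and 94.2 in MP2_NTC. The promoter window of *MAX* held no called peak in MP2_HDAC1_OE or MP2_NTC.

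*MXD1*, a MAX-binding repressor that rises in differentiating cells, had the strongest and most even mark of all members. Its only region (chromosome 2, 69914114 to 69914616) ended 493 bp before the start of the gene. The strongest MP2_HDAC1_OE peak had a signal of 127.1 and stood at percentile 99.3, and the MP2_NTC peak had 135 and stood at 98.9. A region unique to MP2_NTC at percentile 67.6 lay 20325 bp from the gene, just outside the 20 kb flank.

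*MXD4*, a second repressor of this class, had 1 shared region 179 bp before its start (chromosome 4, 2262288 to 2263107). It stood at percentile 84.9 in MP2_HDAC1_OE and 66.2 in MP2_NTC, and the difference of 18.7 points is just under the 20 points used for the counts above.

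*MXI1* (also called MXD2) showed the mark at only the last of its 3 annotated starts, and there only in MP2_NTC. The region (chromosome 10, 110225646 to 110226666) held 2 MP2_NTC peaks and stood at percentile 28.3, and the nearest MP2_HDAC1_OE peak was 78522 bp away. Past the gene, at the neighbor *SMNDC1*, lay another region unique to MP2_NTC (110304144 to 110304963, percentile 48.0) and a shared one (110305068 to 110306086) at 27.3 in MP2_HDAC1_OE and 23.1 in MP2_NTC. The unique region at *SMNDC1* lay 225 bp from the nearest MP2_HDAC1_OE peak.

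*MNT*, the broadly expressed MAX-binding repressor, had 6 regions, with 2 of each class. Just inside its start a shared region (chromosome 17, 2400310 to 2400918) stood at percentile 60.3 in MP2_HDAC1_OE and 79.96 in MP2_NTC. Just before the start, 738 bp outside the gene, a region unique to MP2_HDAC1_OE (2401798 to 2402063) stood at 86.8. Within the gene a shared region (2393235 to 2394153) stood at 88.9 in MP2_HDAC1_OE and 48.1 in MP2_NTC, the only member region off the *MYC* locus with a difference over 20 points (40.8). The other MP2_HDAC1_OE region (2396846 to 2398087) stood at 50.4, and the 2 regions unique to MP2_NTC stood at 69.6 (2398941 to 2399760) and 17.7 (2382661 to 2383480, beyond the 3′ end). *MNT* thus had H3K27ac in both lists, at 2 common positions and at others called in a single list.

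*MLX*, the MAX-like partner, had a shared region over its start (chromosome 17, 42566375 to 42568201) at percentile 76.0 in MP2_HDAC1_OE and 80.3 in MP2_NTC. Its other 5 regions lay in the flanks, over neighboring genes. The shared region at *PSMC3IP* (42577804 to 42578716) stood at 93.3 and 82.2, that at *COASY* (42562388 to 42563347) at 74.0 and 62.6, and that at *HSD17B1* (42554780 to 42555920) at 65.9 and 75.6. Both regions unique to MP2_NTC lay before the gene, at 84.5 in *HSD17B1* (42554245 to 42554664) and 16.4 beside *COASY* (42561710 to 42561940). None was unique to MP2_HDAC1_OE.

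*MGA*, a large MAX partner that works in a Polycomb complex, was the only member with no MP2_NTC peak within the gene and 20 kb. Its internal starts at 41660405 and 41660747 lay in a region of 3 MP2_HDAC1_OE peaks (chromosome 15, 41659781 to 41661207) at percentile 48.0, and the nearest MP2_NTC peak was 73891 bp away. The first annotated start of *MGA* had no region of either line. The other *MGA* region, at percentile 63.0 (41774416 to 41775235), lay in the neighbor *MAPKBP1*. Outside the flank, a region unique to MP2_NTC at percentile 22.9 lay 35335 bp before the gene, so that with a flank of 50 kb all 9 members had an MP2_NTC peak.

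The upstream sequences of the starts on which these results turn show how the family's own binding site is placed relative to the mark. The E-box CACGTG, which reads the same on both strands, was searched in the 250 bases before each start in the RefSeq table (GRCh38.p14). It was found before 2228 of 35116 starts (6.34%) and before 3 of the 12 starts of the members in the table, which has no entry for *MYC* or *PVT1*. Capitals mark the E-box, and all sequences are written 5′ to 3′ on the strand of the gene. In *MLX* (chr17:42566850-42567099, plus strand) the E-box began 50 bases before the start, within the shared region. In *MNT* (chr17:2401061-2401310, minus strand) it began 193 bases before, in the gap between the shared region and the region unique to MP2_HDAC1_OE. In *MXD4* (chr4:2262110-2262359, minus strand) it began 238 bases before, within the shared region, under the MP2_NTC peak (from 2262288) and outside the MP2_HDAC1_OE peak (from 2262757). The starts of *MGA* (chr15:41660155-41660404, plus strand, in the region unique to MP2_HDAC1_OE) and *MXI1* (chr10:110225746-110225995, plus strand, in the region unique to MP2_NTC) have no CACGTG in this window. A match is a description of the letters and not of binding.
MLX: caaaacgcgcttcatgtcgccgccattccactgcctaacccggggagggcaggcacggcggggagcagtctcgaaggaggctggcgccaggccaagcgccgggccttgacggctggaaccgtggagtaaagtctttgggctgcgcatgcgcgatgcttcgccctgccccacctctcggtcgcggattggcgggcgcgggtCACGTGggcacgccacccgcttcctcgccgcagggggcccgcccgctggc
MNT: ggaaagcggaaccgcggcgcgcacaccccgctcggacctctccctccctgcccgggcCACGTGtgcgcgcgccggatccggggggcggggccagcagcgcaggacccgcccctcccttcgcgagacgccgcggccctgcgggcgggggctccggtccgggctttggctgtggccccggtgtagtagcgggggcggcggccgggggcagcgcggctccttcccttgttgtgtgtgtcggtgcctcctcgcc
MXD4: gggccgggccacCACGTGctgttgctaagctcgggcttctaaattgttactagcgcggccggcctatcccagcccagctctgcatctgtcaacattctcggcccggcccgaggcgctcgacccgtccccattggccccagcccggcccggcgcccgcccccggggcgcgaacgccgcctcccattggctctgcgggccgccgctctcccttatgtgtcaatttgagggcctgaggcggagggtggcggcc
MGA: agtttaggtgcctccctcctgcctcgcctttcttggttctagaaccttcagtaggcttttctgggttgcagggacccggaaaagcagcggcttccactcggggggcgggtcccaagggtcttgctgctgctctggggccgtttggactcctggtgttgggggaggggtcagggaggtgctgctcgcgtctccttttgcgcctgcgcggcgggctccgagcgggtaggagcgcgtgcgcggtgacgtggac
MXI1: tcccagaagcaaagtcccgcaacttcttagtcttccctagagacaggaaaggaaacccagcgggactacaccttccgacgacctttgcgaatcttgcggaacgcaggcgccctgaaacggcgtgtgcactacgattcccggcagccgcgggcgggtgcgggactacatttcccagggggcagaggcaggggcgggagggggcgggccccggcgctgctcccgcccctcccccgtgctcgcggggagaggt

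The wider MYC network was read from 18 further genes. Of these, 15 had a promoter region of either line (83.3%, against 48.8% of all protein-coding genes), and 12 had a shared one (66.7%, against 35.9%). A region unique to MP2_HDAC1_OE stood at 4 (22.2%, against 11.8%) and one unique to MP2_NTC at 3 (16.7%, against 10.1%). The regions unique to MP2_HDAC1_OE included those at *MLXIPL* (percentile 47.2), the glucose-sensing partner of MLX, *RUVBL1* (81.0), a helicase subunit of MYC cofactor complexes, and *AURKA* (46.5), a kinase that stabilizes MYC family proteins. Those unique to MP2_NTC lay at *AURKA* (81.7), *RUVBL2* (4.86) and *FBXW7* (15.0), the ubiquitin ligase subunit that targets MYC. The paralogs *MYCN* and *MYCL* and the MLX partner *MLXIP* had no promoter region. *AURKA* thus had a unique region of each line and no shared one.

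At the 14 shared promoter regions of this list the median difference was 0.957 points, near the 1.04 points over all 6826 shared promoter regions of protein-coding genes. The regions at *RUVBL2* (95.1 in MP2_HDAC1_OE, 62.6 in MP2_NTC) and *EP400* (48.6 and 25.5), a remodeler subunit, stood over 20 points higher in MP2_HDAC1_OE. Those at *RUVBL1* (44.6 and 90.4), *SKP2* (27.5 and 57.5) and *MXD3* (48.4 and 70.6) stood over 20 points higher in MP2_NTC. A second, stronger shared region at *RUVBL1* stood at 92.1 and 96.6, a difference of -4.56 points. A second, stronger one at *RUVBL2* stood at 97.5 and 81.7, a difference of 15.8 points. *TRRAP*, the scaffold through which MYC recruits acetyltransferases, was at the top of both lists, at 99.4 and 98.0.

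Among 25 commonly cited MYC targets, 21 had a promoter region of either line (84.0%, against 48.8% of all protein-coding genes) and 18 a shared one (72.0%, against 35.9%). Regions unique to MP2_HDAC1_OE were found at 4 of them (*LDHA*, *CAD*, *PTMA* and *SLC7A5*; 16.0%, against 11.8%) and regions unique to MP2_NTC at 5 (*NPM1*, *LDHA*, *EIF4E*, *PTMA* and *GNL3*; 20.0%, against 10.1%). No region lay at *HK2*, *CCND2*, *E2F1* or *TERT*. At the 23 shared promoter regions of the list the median difference was -2.91 points, with 3 at least 20 points higher in MP2_HDAC1_OE and 10 at least 20 points higher in MP2_NTC. Over all 6826 shared promoter regions the counts were 1229 and 945.

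The 10 target regions higher in MP2_NTC lay at 10 genes. *FBL*, the fibrillarin methyltransferase of ribosomal RNA, stood at percentile 2.14 in MP2_HDAC1_OE and 74.4 in MP2_NTC. *NOP16*, a nucleolar protein gene, stood at 44.4 and 97.8 in one of its 2 regions but at 96.7 and 99.1 in the other. *CAD*, which starts pyrimidine synthesis, stood at 41.7 and 94.3. The others lay at *NCL*, *ODC1*, *CDK4*, *NOP56*, *EIF4A1*, *PTMA* and *POLR1B*. At *PTMA* the shared region (chromosome 2, 231706220 to 231707109) stood at 58.4 and 93.8. Directly beside it lay a region unique to MP2_HDAC1_OE (231707115 to 231708183) at 88.7, followed by one unique to MP2_NTC at 76.8. At *NCL* and *NOP56* a second, stronger region differed by only 4.21 and 3.95 points toward MP2_HDAC1_OE, and the ribosome production genes *BOP1* (12.1), *DKC1* (2.80) and *RRP9* (2.36) also had positive differences under 20 points. The 3 regions higher in MP2_HDAC1_OE were 2 at *RCC1* (92.9 and 67.2, and 94.1 and 68.2) and 1 at *EIF4E* (79.98 and 51.6). These counts describe 1 pooled list per line and were not tested.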

How the data were processed

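H3K27ac ChIP-sequencing of MP2_HDAC1_OE and MP2_NTC was read as 75 bp single-end sequences. The mark was precipitated with a commercial antibody and the authors ran the ENCODE pipeline. The submitters' processing notes name hg38, BWA 0.7.12, Picard 1.88 and SAMtools. The peak caller is not given in the sources used here. For each line the authors deposited the optimal IDR peaks of both H3K27ac samples together. The deposited signal value of each peak was used to rank it within its list, and the deposited score was not used. Some intervals are listed more than once with separate summits (1181 of 25045 peaks in MP2_HDAC1_OE and 970 of 22569 in MP2_NTC), and each was kept. In the *MYC* locus such repeats were 7 of 127 peaks in MP2_HDAC1_OE and 1 of 85 in MP2_NTC.

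Peaks sharing at least 1 bp were merged. A shared region was counted as higher in a line at a difference of 20 percentile points or more. Gene ends came from RefSeq (GRCh38.p14), and the promoter windows on other chromosomes from the RefSeq starts with their strand. On chromosome 8, where no starts were used here, either end of the gene stood in. Introns and exons were not annotated here. Shares carry 95% Wilson intervals. The text names the 9 members, the network and target genes with a region unique to 1 line or a difference of 20 points, the genes next to regions unique to MP2_HDAC1_OE from 120 to 130 Mb, and *HDAC1*, and 1 result is not reported here. Stretches with gaps of up to 12.5 kb, percentile 90 and blocks with gaps of up to 25 kb were chosen after the data were seen. The members and lists were chosen with earlier results of these data known. Alternatives varied the overlap, the merging gap, the peak threshold, the flanks and the windows. Tables were handled in pandas 2.3.3 (numpy 2.4.6, Python 3.11.15), intervals came from scipy 1.17.1 and plots from matplotlib 3.10.9. Merging and ranking were checked on simulated peaks.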

Additional observations from a re-analysis of the deposited data

How the results depend on the processing

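The counts rest on 1 pooled list per line. No replicate could be left out, and no paired analysis was possible because the lists carry no replicates. Depth is unknown, so a region missing from a list may be below its threshold. In the windows of the 9 members, 24 of 69 regions were unique to MP2_HDAC1_OE (34.8%, against 28.6% of all regions). There were 17 unique to MP2_NTC (24.6%, against 20.7%) and 28 shared (40.6%, against 50.7%). Of 76 alternative counts, 58 stayed within 1.5 times the reported one and 18 did not. With single peaks that had to overlap by 50%, the counts in the windows of the 9 members were 52 unique to MP2_HDAC1_OE, 41 unique to MP2_NTC and 58 shared, those in the *MYC* locus were 91, 50 and 71, and those from 120 to 130 Mb were 102, 60 and 85, since peaks are then counted and not merged regions. With gaps of up to 500 bp merged, the regions unique to MP2_NTC fell to 11 for the members, 8 in the *MYC* locus and 11 from 120 to 130 Mb, and the promoter counts became 1 network gene unique to MP2_NTC, 1 target unique to MP2_HDAC1_OE and 1 target unique to MP2_NTC. With the top 75% of peaks, regions unique to MP2_NTC numbered 11 for the members, and 1 network gene had one. By summed signal, 12 shared member regions stood at least 20 points higher in MP2_HDAC1_OE and 11 at least 20 points higher in MP2_NTC. In each alternative MP2_HDAC1_OE had the larger number of unique regions in the *MYC* locus, by 1.82 to 3.63 times, where the whole lists gave 1.23 to 1.40 times. The same peaks were recounted each time, and this contrast is the one that chose the locus, so the recounts are no test of it. For the genes and 20 kb alone, the reported unique regions of MP2_HDAC1_OE were 1.41 times those of MP2_NTC, near the 1.38 of the whole lists. Equal numbers of peaks gave 19 regions unique to MP2_HDAC1_OE and 18 unique to MP2_NTC there. Ranking merged regions in place of peaks lowered the top percentile of every member with a peak, as in *MXI1* (27.3 to 13.3 in MP2_HDAC1_OE).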
